A study of Tachysurus vachellii with 12 samples.

Results

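Control of glucose output and glycogen was described in liver through 4 gene names, Pck1, G6PC, PPARGC1A and GYS1, in the deposited mRNA table of a fish hypoxia experiment. Rows were taken by name with case ignored, which gave 8 of the 34744 components of the table: 1 for Pck1, 2 for G6PC (one of them written g6pc), 3 for PPARGC1A and 2 for GYS1. A component is a gene as assembled from the reads without a genome, so several components of a name can be copies of a gene or pieces of a transcript, and the table does not say which. The livers came from juvenile Tachysurus vachellii, a catfish named Pelteobagrus vachelli in the title of the series. Control fish lived at 6.8 mg/L oxygen, and hypoxic fish were kept at 0.7 mg/L for 4 h by bubbling nitrogen. All fish shared 3 aquaria, a compound feed and eugenol anaesthesia, and the controls were taken before the water was deoxygenated, so that oxygen and the order of sampling cannot be told apart. Livers of 5 fish were pooled for each library, so there is no value for a single fish. A group has 3 such pools with the letters a, b and c, and values per pool are given in that order below. The p-values measure the spread between these pools.

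The liver supplies glucose to the blood by breaking down glycogen and by building glucose from lactate, amino acids and glycerol. Pck1 makes phosphoenolpyruvate from oxaloacetate, the step that commits carbon to new glucose, and glucose-6-phosphatase, encoded by G6PC, removes the phosphate at the end of either route so that glucose can leave the cell. Glycogen synthase lengthens glycogen chains, and in mammals GYS2 is the liver form while GYS1 is found in muscle and most other tissues. PPARGC1A encodes PGC-1 alpha, a coactivator known in mammals to raise the transcription of gluconeogenic and mitochondrial genes in fasting.

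The 6 mRNA libraries held 32652355 to 35852306 counts, so that 3 counts correspond to 0.0829 to 0.0934 counts per 1000000 (CPM, on library sizes scaled by the TMM method), counting error only. The pools lettered c stood apart on principal component 2 of the libraries (-34.2 in control c and -39.3 in hypoxia c, against 6.02 to 28.0), and values without them are given below. Of 15 hepatocyte markers 11 were matched, and their summed level was 65168 to 85504 CPM in control pools and 62555 to 74812 CPM in hypoxia pools. None of the 10 tested passed in edgeR or limma-voom, 1 rose in DESeq2 and 2 had an unadjusted edgeR p under 0.05. None of the 11 was at 0 in all libraries, but fabp10a lay near the level of 3 counts in both groups (means of 0.118 and 0.148 CPM). Exocrine pancreas markers were present too: 9 of 14 were matched, with a summed level of 5036.5, 1608 and 95.1 CPM in control pools and 7565, 2335 and 1866 CPM in hypoxia pools, and 0 of 9 passed or had an unadjusted p under 0.05 in edgeR. Summed erythroid markers (5 of 9 matched) ran from 1262.5 to 2569 CPM in control pools and from 591 to 2497 CPM in hypoxia pools. Kidney tubule markers (2 of 6 matched) summed to 3.92 to 11.5 and 5.17 to 9.20 CPM, and leukocyte markers (4 of 8 matched) to 15.3 to 19.4 and 13.8 to 24.4 CPM, and no erythroid, kidney or leukocyte marker passed in edgeR, DESeq2 or limma-voom. At an unadjusted edgeR p under 0.05 there were 0 erythroid, 1 kidney and 0 leukocyte markers. Without both c pools 3 of the 10 hepatocyte markers rose and 1 fell, 2 of the 5 erythroid markers and 1 of the 2 kidney markers fell, and 0 of the pancreas and leukocyte markers passed. That fit called more over all components too, with 2337 rising and 1479 falling, beside 1159 and 458 with all libraries. The part of these other cell types in the results below was not tested.

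All 8 components passed the filter on low counts and were tested with edgeR's quasi-likelihood test over all 25415 components kept. Of the 8, 5 rose, 1 fell and 2 did not pass at an adjusted p under 0.05. Over all components 6.36% passed, with 4.56% rising and 1.8% falling. In 7 of the 8 the values of the hypoxia pools did not overlap those of the control pools, as in 28.3% of all components tested. The genes were picked for description with earlier results of these data known, so these shares are a description. In bulk liver, fewer cells of a type and less RNA per cell cannot be told apart.

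**Figure D1:**
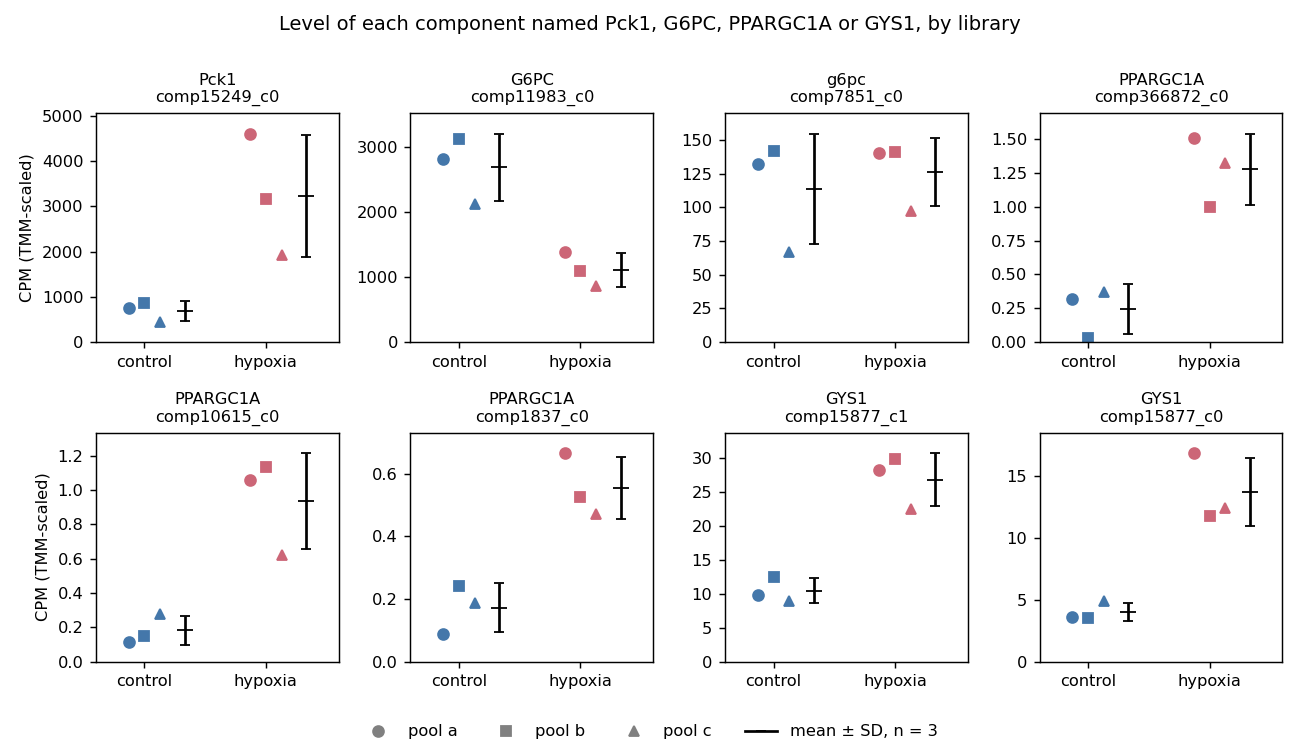
Level of each of the 8 components in CPM (counts per 1000000 on TMM-scaled library sizes, linear axes from 0) in the 3 control and the 3 hypoxia pools, with circles, squares and triangles for pools a, b and c and bars for mean ± SD (n = 3). Pck1, the PPARGC1A components and the GYS1 components lie higher in each hypoxia pool than in any control pool, G6PC comp11983_c0 lies lower, and g6pc comp7851_c0 overlaps.

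Of the 8 components Pck1 gained the most reads. Its single component (comp15249_c0, effective length 2412 bases, annotated as the GTP-dependent phosphoenolpyruvate carboxykinase) stood at 751, 862 and 441 CPM in control pools. The hypoxia pools a, b and c had 4599, 3154 and 1917 CPM. The lowest hypoxia pool was thus above the highest control pool, and pool c was the lowest of its group in both. The mean went from 685 ± 218 to 3224 ± 1342 CPM (SD, n = 3), a 4.71-fold rise (log2 fold change 2.24, SE 0.36, edgeR adjusted p = 0.0083). Between pools of the same letter Pck1 was 6.13, 3.66 and 4.35 times as high in hypoxia pools. Its share of all counts moved from between 0.0414 and 0.0834% to between 0.199 and 0.459%. Ranked by transcripts per 1000000 (TPM, counts per length scaled within a library), Pck1 stood between places 247 and 373 in control pools and between places 78 and 161 in hypoxia pools. Without control a the adjusted p was 0.053 at a log2 fold change of 2.29, and without both c pools the change was 2.26 (SE 0.21, adjusted p = 4.5e-05).

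The main G6PC component (comp11983_c0, effective length 2095 bases) went the other way. It had 2823, 3132 and 2127 CPM in control pools and 1381, 1094 and 859 CPM in hypoxia pools, with no overlap between the groups. The mean fell from 2694 ± 515 to 1111 ± 261 CPM (SD, n = 3), to a level 2.42 times lower (log2 fold change -1.28, SE 0.23, edgeR adjusted p = 0.015). It was 0.489, 0.349 and 0.404 times its control level in hypoxia pools, and moved from places 109 to 152 to places 188 to 229 by TPM. In the fits lacking control a, control b or hypoxia b the call was lost, at adjusted p = 0.069, 0.073 and 0.066 and log2 fold changes of -1.26, -1.16 and -1.27. Without both c pools the change was -1.27 (SE 0.18, adjusted p = 0.00082).

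A shorter component, g6pc comp7851_c0 (effective length 889 bases), also annotated as glucose-6-phosphatase, did not follow it. It had 132, 142 and 66.9 CPM in control pools and 141, 141 and 97.1 CPM in hypoxia pools, and the groups overlapped. Its log2 fold change was 0.15 (SE 0.29, adjusted p = 0.81), or 0.04 without both c pools. The main component had 9.05, 9.36 and 13.5 times the TPM of the shorter one in control pools, and 4.17, 3.29 and 3.75 times in hypoxia pools. The log2 of that ratio moved by -1.49 between the group means with no overlap. An exact permutation test over libraries, two-sided, gave p = 0.1, which is the smallest that 3 against 3 allows, and adjusted p = 0.1 over the 3 ratios tested in this way, all chosen after their values were seen. Where groups do not overlap the test can give no other p, so it adds nothing to the lack of overlap in any of the 3 ratios. The shorter component thus made up 6.9 to 9.95% of the G6PC level per length in control pools and 19.4 to 23.3% in hypoxia pools.

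Pck1 and G6PC changed places in order of level. In control pools Pck1 had 0.231, 0.239 and 0.18 times the TPM of G6PC comp11983_c0 in a, b and c. In hypoxia pools it had 2.89, 2.5 and 1.94 times. The log2 ratio was -2.22 ± 0.22 in control and 1.27 ± 0.29 in hypoxia (SD, n = 3), and the shift was 3.65, 3.39 and 3.43 for the letters a, b and c. Within each group both genes went up and down together, since the deviations from the group means had a Pearson r of 0.997 over the 6 libraries. That r is a description with no p, over libraries that share their scaling, and pool c had the lowest value of both genes in each group. In the same way 418 of 4818 other named components (8.68%) had r over 0.95 with G6PC.

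**Figure D2:**
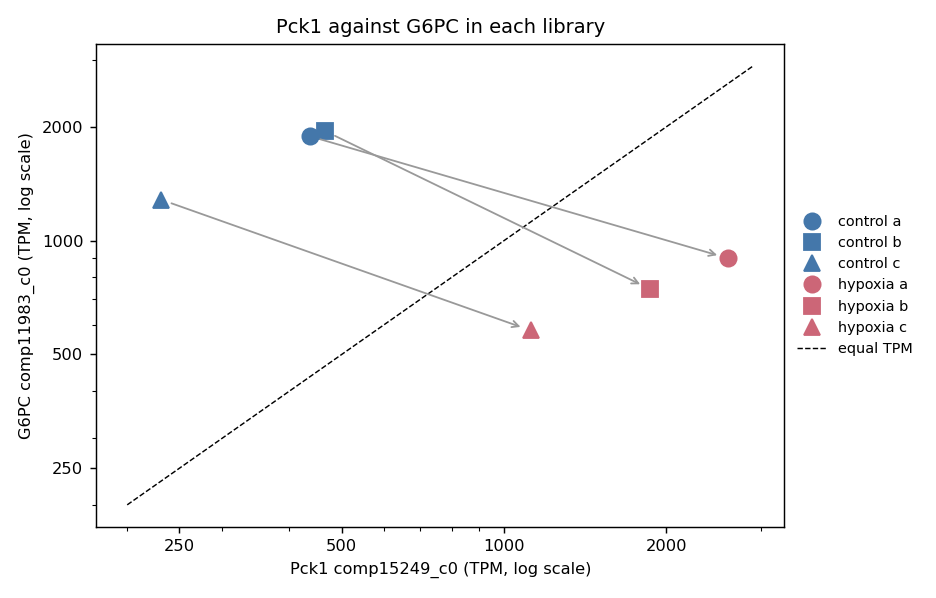
TPM of Pck1 comp15249_c0 (x axis) against that of G6PC comp11983_c0 (y axis), both on log scales, with blue for control and red for hypoxia and an arrow from the control to the hypoxia pool of each letter. The control pools lie above the dashed line of equal TPM (Pck1 at 0.18 to 0.239 times G6PC) and the hypoxia pools below it (1.94 to 2.89 times), with pool c lowest on both axes in each group.

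The other listed enzymes of gluconeogenesis gave no call. Of 6 genes matched and tested, Pck1 rose, G6PC fell and 4 did not pass, and the median log2 fold change was 0.07, beside -0.003 for all components tested. Of all components tested 4.56% rose and 1.8% fell. FBP1 (comp7712_c0), the fructose bisphosphatase between the 2 named steps, had 166, 187 and 137 CPM in control pools and 334, 309 and 181 CPM in hypoxia pools. Hypoxia c lay below control b, so the groups overlapped. Its log2 fold change was 0.75 (SE 0.25, adjusted p = 0.12). FBP1 passed with the letter as a replicate block (0.71, adjusted p = 0.036) and without both c pools (0.87, adjusted p = 0.0033). Both fits called more over all components too, with 1695 and 2337 rising, beside 1159 in the main fit. The letter pairs and the c pools were picked out from these same data. Pyruvate carboxylase (Pc, comp17176_c0), which makes the oxaloacetate that Pck1 uses, had 599 CPM as its control mean and 708 CPM as its hypoxia mean, the order kept below (0.24 on the log2 scale, adjusted p = 0.74). SLC37A4, which carries glucose 6-phosphate to the phosphatase, had 80.5 and 75.2 CPM (-0.10, adjusted p = 0.78), and g6pc3, a widely expressed relative of the phosphatase, had 0.488 and 0.326 CPM (-0.57, adjusted p = 0.63). The listed name pck2 was matched by no component.

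Genes for the entry of glucose and its phosphorylation included 3 that rose. Of 6 tested in the list of glucose passage and phosphorylation, SLC2A1, HK1 and HK2 rose in edgeR (log2 fold changes 2.00, 1.78 and 1.26). None fell in that fit and 3 did not pass, where 4.56% of all components tested rose and 1.8% fell. In DESeq2, with the replicate block and without both c pools, 3 rose and 1 fell each time. Over all components these 3 fits also called more than the main fit (1159 rising and 458 falling). They had 1580, 1695 and 2337 rising and 750, 798 and 1479 falling. In limma-voom 2 genes of the list rose and 0 fell. The call of HK2 did not hold in limma-voom, nor in any fit lacking 1 library except that without hypoxia a. The glucose carrier of hepatocytes, SLC2A2 (comp7972_c0), had 124 and 109 CPM (-0.19, adjusted p = 0.51).

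GYS1 rose in both of its components. The longer (comp15877_c1, effective length 1791 bases) had 9.86, 12.5 and 8.94 CPM in control pools and 28.1, 29.8 and 22.5 CPM in hypoxia pools. The shorter (comp15877_c0, 932 bases), which carries the same assembly number, had 3.62, 3.55 and 4.89 CPM in control and 16.8, 11.8 and 12.4 CPM in hypoxia pools. In neither did the groups overlap, and the lowest hypoxia pool was above the highest control pool. The longer rose 2.57-fold (10.4 ± 1.84 to 26.8 ± 3.85 CPM, 1.36 on the log2 scale, SE 0.19, adjusted p = 0.0052). The shorter rose 3.4-fold (4.02 ± 0.756 to 13.7 ± 2.74 CPM, 1.77 on the log2 scale, SE 0.22, adjusted p = 0.0027). Per length the pair stood at like levels, 7.71 ± 1.39 and 5.67 ± 0.849 TPM in control and 21.0 ± 3.05 and 20.5 ± 3.58 TPM in hypoxia. Both kept an adjusted p under 0.05 in each of the 14 alternative fits, with the highest at 0.049 and 0.032. In 1 of these fits the reads of the pair were summed, so it holds neither component alone. Without both c pools the changes were 1.37 and 1.99 (adjusted p = 0.00021 and 9.9e-05).

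The far more abundant glycogen synthase of these livers was the component named GYS2. GYS2 (comp17419_c0) had 653, 698 and 658 CPM in control pools and 830, 893 and 597 CPM in hypoxia pools, and did not pass (log2 fold change 0.21, SE 0.19, adjusted p = 0.57). The longer GYS1 component had 0.0212, 0.0252 and 0.0191 times the TPM of GYS2 in control pools and 0.0476, 0.0469 and 0.0529 times in hypoxia pools. The groups did not overlap in this ratio (exact permutation test, two-sided, p = 0.1, the smallest possible, and adjusted p = 0.1 over the 3 ratios). Muscle markers, listed because GYS1 is the muscle form in mammals, summed to 96.5 to 124 CPM in control and 95.8 to 113 CPM in hypoxia pools with 9 of 15 matched. Of the 8 tested, 7 did not pass and the creatine kinase gene CKM fell (log2 fold change -5.27, adjusted p = 0.042), although its groups overlapped, with 23.6, 0.182 and 18.1 CPM in control pools and 0.242, 0.304 and 0.531 CPM in hypoxia pools. In limma-voom CKM did not pass (-3.63, adjusted p = 0.46).

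GYS1 was the one gene that edgeR called among the lists of glycogen synthesis and breakdown when all 6 libraries were used. Since 6.36% of all components tested passed, 1 call in 2 lists of 9 genes does not set these lists apart. Of 9 listed genes of glycogen synthesis GYS1 rose, none fell and 8 did not pass, with a median log2 fold change of 0.06, or 0.54 over all 15 matching components tested. UGP2, which makes the UDP-glucose that glycogen synthase consumes, had 1951 and 2039 CPM (0.06, adjusted p = 0.89). Of 9 genes of glycogen breakdown, 0 passed in edgeR, DESeq2 or limma-voom and 3 had an unadjusted p under 0.05 in edgeR (median 0.15). Without both c pools 2 of the synthesis genes rose and 1 fell, and 1 of the breakdown genes rose and 1 fell. The liver phosphorylase PYGL (comp19111_c2) had 233, 244 and 189 CPM in control pools and 264, 254 and 233 CPM in hypoxia pools (log2 fold change 0.17, adjusted p = 0.60), and the phosphorylase kinase subunit PHKB had 71.2 and 64.4 CPM (-0.14, adjusted p = 0.71). The log2 ratio of the longer GYS1 component to PYGL, per length, was -3.77 ± 0.14 in control and -2.58 ± 0.14 in hypoxia (SD, n = 3).

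Subunits that bring protein phosphatase 1 to glycogen, where it activates glycogen synthase, included a scarce riser and more abundant subunits that lay lower in hypoxia. Of 6 tested genes of that list, PPP1R3C rose, ppp1r3b fell and 4 did not pass. Over all components tested 4.56% rose and 1.8% fell. The summed level of the list was 232 to 268 CPM in control pools and 134 to 187 CPM in hypoxia pools. PPP1R3C (comp15503_c0) had 2.36, 1.97 and 2.68 CPM in control and 4.9, 6.94 and 7.81 CPM in hypoxia pools (log2 fold change 1.49, SE 0.24, adjusted p = 0.0091). The subunit ppp1r3b (comp13653_c0), known in mammals as a liver form, had 61.2, 64.2 and 114 CPM in control and 21.4, 34.8 and 34.1 CPM in hypoxia pools (-1.41, SE 0.29, adjusted p = 0.024). The groups overlapped in neither. A second component of the C type, ppp1r3cb (comp7981_c0), was the more abundant of the C type and had 108 and 67.5 CPM. Its groups did not overlap either, as in 28.3% of all components tested. It did not pass (-0.67, adjusted p = 0.18), but fell without both c pools (-1.01, adjusted p = 0.012). The catalytic subunit ppp1cb had 36.9 and 37.4 CPM (0.02, adjusted p = 0.96). The fits lacking control a or control b lost both calls, and those lacking hypoxia a or hypoxia b that of ppp1r3b.

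**Figure D3:**
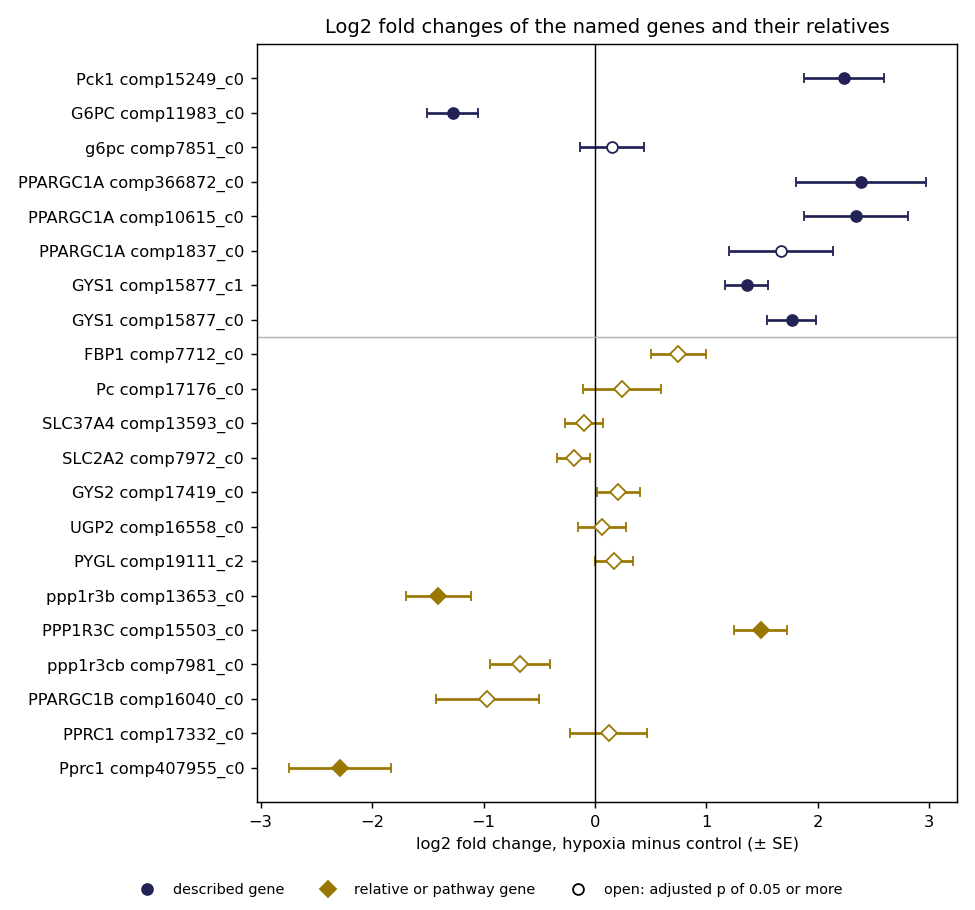
Log2 fold change of hypoxia over control with its SE from edgeR for the 8 described components (circles) and 13 relatives and pathway genes (diamonds), filled where the adjusted p was under 0.05. Pck1, GYS1, 2 of the 3 PPARGC1A components and PPP1R3C are filled to the right, G6PC comp11983_c0, ppp1r3b and Pprc1 to the left, while GYS2, PYGL and Pc lie near 0 with open symbols.

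PPARGC1A was scarce, and all 3 of its components had a higher level in each hypoxia pool than in any control pool. The best covered, comp366872_c0 (726 bases), had 11, 1 and 12 reads in control pools and 50, 36 and 45.2 reads in hypoxia pools. For the single read in control b the exact 95% Poisson interval was 0.0253 to 5.57 reads. Its level went from 0.242 ± 0.185 in control to 1.28 ± 0.261 CPM in hypoxia (log2 fold change 2.38, SE 0.58, adjusted p = 0.046). This call was lost in limma-voom, with no filter on low counts and in each fit lacking 1 library except that without control c.

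The other PPARGC1A components gave the same direction on as few reads. The component comp10615_c0 (565 bases) had 4, 5 and 9 reads in control pools and 35, 41 and 21 reads in hypoxia pools, and rose from 0.183 ± 0.0862 to 0.937 ± 0.278 CPM, by 2.34 on the log2 scale (SE 0.46, adjusted p = 0.021). Its call was gone in 4 of the fits lacking 1 library (a or b of either group). The component comp1837_c0 (568 bases) had 3, 8 and 6 reads in control pools and 22, 19 and 16 reads in hypoxia pools and did not pass (log2 fold change 1.67, SE 0.47, adjusted p = 0.072). With the reads of the 3 components summed, PPARGC1A rose with a log2 fold change of 2.20 (SE 0.31, adjusted p = 0.0059). Without both c pools the 3 components gave 2.79, 3.0 and 1.83 (adjusted p = 0.013, 0.0018 and 0.058). Per length the 3 stood at 0.442, 0.422 and 0.396 TPM in control, within their spread, and at 2.46, 2.32 and 1.36 TPM in hypoxia. An unnamed component from the same assembly cluster as comp10615_c0 and with the PGC-1 alpha annotation (comp10615_c1) had 3, 5 and 1 reads in control pools and 9, 16 and 7 in hypoxia pools, and was below the filter.

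Relatives of PPARGC1A gave no rise by the test. PPARGC1B (comp16040_c0), the PGC-1 beta gene, had 13, 15.4 and 4.64 CPM in control and 8.37, 5.56 and 2.98 CPM in hypoxia pools. It overlapped between groups (log2 fold change -0.97, SE 0.46, adjusted p = 0.26) but was lower in hypoxia for each letter, and fell with the letter as a replicate block (-0.92, adjusted p = 0.032) and without both c pools (-1.03, adjusted p = 0.0070). The best covered PPARGC1A component had 0.0875, 0.00695 and 0.285 times the TPM of PPARGC1B in control pools and 0.639, 0.633 and 1.59 times in hypoxia pools, with no overlap (exact permutation test, two-sided, p = 0.1, the smallest possible, adjusted p = 0.1). The control b value of this ratio rests on 1 read of PPARGC1A. The third PGC-1 family gene appeared as PPRC1 (comp17332_c0), at 25.4 and 27.7 CPM (0.12, adjusted p = 0.87), and as Pprc1 (comp407955_c0), which fell from 2.78 ± 0.452 to 0.567 ± 0.4 CPM (-2.29, SE 0.46, adjusted p = 0.022).

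Among 21 listed transcription regulators of glucose output 4 rose, PPARGC1A included, none fell and 17 did not pass, with a median log2 fold change of 0.24. Counting all matching components, 10 of 39 rose, but several components of a name can be pieces of a transcript, so these are not separate genes. Of all components tested 4.56% rose. Of the 21, 2 rose in limma-voom, 6 rose and 1 fell with the replicate block, and 8 rose and 2 fell without both c pools. Over all components these fits differed in the same order, with 963, 1695 and 2337 rising, beside 1159 in the main fit. Sik2 (comp18391_c0), a kinase that in mammals keeps the CREB coactivators out of the nucleus, had 95.4, 113 and 140 CPM in control pools and 998, 597 and 384 CPM in hypoxia pools (log2 fold change 2.51, SE 0.34, adjusted p = 0.0043). The transcription factor gene foxo1b (comp8993_c0), whose mammalian counterpart FOXO1 activates PCK1 and G6PC, had 1.34, 1.61 and 1.53 CPM in control and 3.75, 3.79 and 2.54 CPM in hypoxia pools (1.17, SE 0.25, adjusted p = 0.027). The nuclear receptor gene nr4a1 (comp10891_c0), induced by glucagon in mammals, had 0.408, 0.152 and 0.125 CPM in control and 11, 6.08 and 1.62 CPM in hypoxia pools (4.73, SE 0.75, adjusted p = 0.0080). The groups overlapped in none of these. The call of Sik2 was kept in all 13 alternatives, while foxo1b lost it in the same 4 left-out fits as PPARGC1A comp10615_c0, and nr4a1 in limma-voom and without control b. The call of other regulators of this list depended on the fit too, among them the 3 factors described next. The liver factor gene hnf4a had 62 and 94.3 CPM (0.60, adjusted p = 0.30) and rose without both c pools (0.84, adjusted p = 0.014). CEBPA, another liver factor, did not pass with all libraries (1.21, adjusted p = 0.12) but rose in DESeq2 (adjusted p = 0.020), with the replicate block (0.0058) and without both c pools (0.0012). The forkhead factor gene foxo3 did not pass either (1.09, adjusted p = 0.22), and rose with the block (0.0048) and without both c pools (0.0014). The component named CREB1 (comp30650_c0), after a factor of the cAMP response, had 12.3 and 13.4 CPM (0.13, adjusted p = 0.70). Its annotation differs from its name and reads activating transcription factor 1. The 2 most abundant genes of this list by TPM, TXNIP and NR0B2, a repressor of nuclear receptors, had log2 fold changes of -0.29 and -0.20 (adjusted p = 0.69 and 0.75), and TXNIP fell without both c pools (-0.56, adjusted p = 0.041).

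Of 7 listed partners and targets of PGC-1 alpha 1 rose, none fell and 6 did not pass, with a median log2 fold change of 0.28. The riser was PPARA (comp19837_c0), a receptor for fatty acids that PGC-1 alpha coactivates, from 10.7 ± 4.42 to 239 ± 21.3 CPM. ESRRG, the next of that list by TPM, had 15.4 and 22.4 CPM (0.54, adjusted p = 0.37). Over all components tested 4.56% rose and 1.8% fell, so 1 riser in 7 genes does not set this list apart. Without both c pools 2 of the 7 rose and 0 fell, in a fit where 2337 of all components rose and 1479 fell.

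Of 27 hormone and energy signalling genes tested, 2 rose, 1 fell and 24 did not pass, and the median log2 fold change was 0.12. Over all components tested 4.56% rose and 1.8% fell, so that the many genes not passing are no trait of this list. Pde3b (comp16985_c0), the phosphodiesterase through which insulin lowers cAMP, had 17.1, 20.4 and 15.9 CPM in control and 116, 95 and 82.4 CPM in hypoxia pools (log2 fold change 2.46, SE 0.20, adjusted p = 0.00028). PRKAG2 (comp19753_c1), a gamma subunit of the AMP-activated kinase, had 38.7, 42.8 and 32 CPM in control and 94.8, 80.3 and 76.4 CPM in hypoxia pools (1.15, SE 0.18, adjusted p = 0.0077), and its call was lost without control a. PRKAR2A, a regulatory subunit of the cAMP-dependent kinase, fell from 12.3 to 7.06 CPM (-0.80, adjusted p = 0.045), and kept the call in 1 of the 6 fits lacking a library, that without hypoxia c. The receptors themselves did not pass, with Gcgr for glucagon at 32.5 and 37.4 CPM (0.20, adjusted p = 0.81) and Insr for insulin at 55 and 68.1 CPM (0.31, adjusted p = 0.50). The subunits PIK3R1, of the insulin-activated lipid kinase, and PRKAR1A had the highest TPM of this list, with log2 fold changes of 0.82 and 0.46 (adjusted p = 0.095 and 0.21), and PIK3R1 rose in the replicate block fit (adjusted p = 0.021), in DESeq2 (0.038) and without both c pools (0.011).

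**Figure D4:**
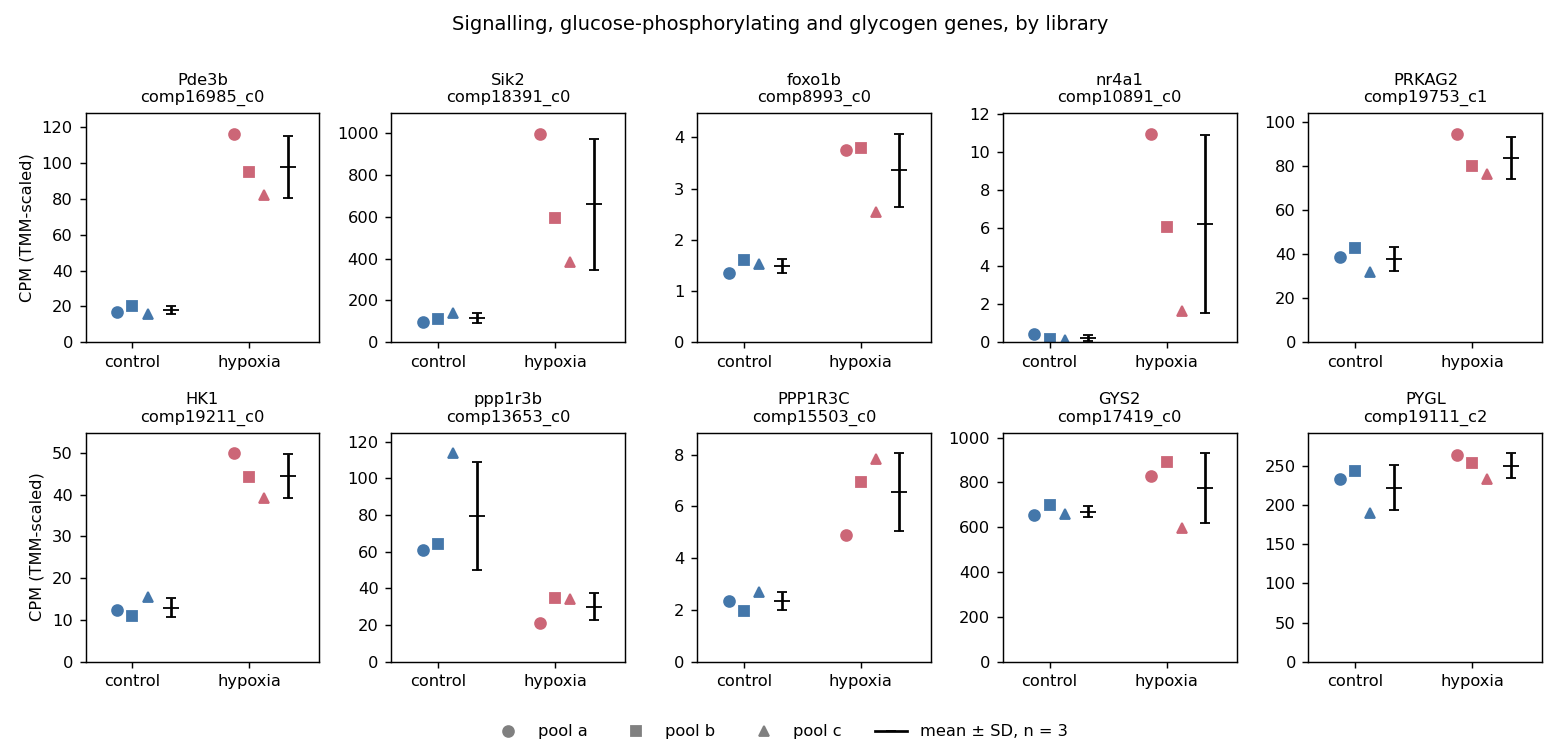
CPM (linear axes from 0) of 10 signalling, glucose-phosphorylating and glycogen genes in each pool, with circles, squares and triangles for pools a, b and c and bars for mean ± SD (n = 3). Pde3b, Sik2, foxo1b, nr4a1, PRKAG2, HK1 and PPP1R3C lie higher in each hypoxia pool than in any control pool, ppp1r3b lower, and GYS2 and PYGL overlap.

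Among genes of carbon supply the calls differed between fits. Of 17 genes that feed carbon to pyruvate and oxaloacetate or set the fate of pyruvate, none rose, 1 fell and 16 did not pass, with a median log2 fold change of -0.18. The gene that fell was MPC2 (comp15749_c1), a subunit of the carrier that brings pyruvate into mitochondria, from 99.7 to 50.7 CPM (-0.98, adjusted p = 0.048), and the call was gone in limma-voom, without the filter and in each fit lacking 1 library except that without control c. The transaminase gene GOT1 and the glycerol kinase gene Gk did not pass (1.24 and 0.84, adjusted p = 0.11 and 0.059), but both rose in DESeq2 (adjusted p = 0.017 and 0.016), with the replicate block (0.020 and 0.035) and without both c pools (0.00073 and 0.00061). Lactate dehydrogenase ldhba and malate dehydrogenase MDH1, the most abundant of the list by TPM, had log2 fold changes of 0.39 and 0.02 (adjusted p = 0.34 and 0.97). Over all 9 lists, 104 genes other than the 4 described were tested, of which 10 rose and 3 fell. In the replicate block fit 16 rose and 5 fell, while without both c pools 21 rose and 10 fell. These fits called more over all components as well. There 1159 rose and 458 fell in the main fit, 1695 and 798 with the block, and 2337 and 1479 without both c pools.

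All 8 components carry the KEGG pathway of insulin signaling, a label that goes with their annotation and so is not independent of the choice by name. Of the 8, 3 also carry the pathway of glycolysis and gluconeogenesis, namely Pck1 and the G6PC pair. Of 193 other tested components in the insulin pathway 7 rose, 9 fell and 177 did not pass. Their median log2 fold change was 0.004. Of 74 others in the glycolysis and gluconeogenesis pathway 11 rose and 2 fell, with a median of -0.02. For comparison, 4.56% of all components tested rose and 1.8% fell.

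Across the 4 names the order of level per length was the same within each group except for Pck1 and G6PC. In control it ran from G6PC comp11983_c0 (1708 ± 368 TPM) over Pck1 (378 ± 128) and g6pc comp7851_c0 (171 ± 65.4) to GYS1 and PPARGC1A. In hypoxia Pck1 came highest (1862 ± 739 TPM), then G6PC comp11983_c0 (741 ± 160) and g6pc comp7851_c0 (199 ± 39.0). The ranges of these 3 components overlapped in neither group, while those of the GYS1 pair overlapped in both groups. The 3 PPARGC1A components overlapped in control, and in hypoxia comp1837_c0 lay below comp366872_c0.

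Likeness of pattern was measured as Pearson r of log2(CPM + 1) over the 6 libraries with 4818 to 4820 other named components of at least 10 CPM, as a description with no p. For Pck1 the 3 most alike were zgc:66022, SPHK2 and PDE8A (r of 0.999, 0.999 and 0.999), and 5.15% of candidates had r over 0.95. For G6PC comp11983_c0 they were NUDT5, CSTF2 and tuba (0.992, 0.988 and 0.987), with 1.25% over 0.95, and none of these 3 passed the test. For PPARGC1A comp366872_c0 they were SLC37A3, Zbtb22 and LIMS1 (0.995, 0.993 and 0.992), and for GYS1 comp15877_c1 RALGAPB, USP25 and DNMBP (0.998, 0.995 and 0.994). Some of these components have an annotation that differs from the name. It reads nucleolin for CSTF2, paxillin for LIMS1 and a V-type ATPase proteolipid subunit for DNMBP. With the group means taken out, the most alike were Tlr3, HPGD and TTC27 for Pck1 and DERA, Ino80 and Dis3 for G6PC (r of 0.998 to 1.00 in all). They were LIMS1, Zbtb22 and chmp5 for PPARGC1A (0.991, 0.972 and 0.971), and Sin3a, PROS1 and Itih2 for GYS1 (0.999, 0.998 and 0.996). By level, 1.08% of candidates had r over 0.95 with PPARGC1A and 4.21% with GYS1. With the group means taken out, the shares were 9.52% for Pck1, 8.68% for G6PC, 0.104% for PPARGC1A and 2.59% for GYS1. The PPARGC1A pattern rests on 1 to 50 reads per library, and the 1 added to the CPM is larger than its control levels. Over so few libraries a high r alone says little.

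The authors' deposited table marked 6 of the 8 components as significant, where it marked 2.77% of all 34744. In the authors' deposited table the log2 fold changes were 2.23 for Pck1, -1.28 and 0.14 for the G6PC pair, 2.39, 2.35 and 1.67 for PPARGC1A and 1.35 and 1.76 for GYS1, with p-values of 0.0235, 0.00019, 0.985, 0.0014, 0.0085, 0.26, 0.00024 and 1.7e-06. The 2 left unmarked there, g6pc comp7851_c0 and PPARGC1A comp1837_c0, are those that did not pass here.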

How the data were processed

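Per the labels, the authors cleaned the paired-end mRNA reads of adaptors and poor bases and built components from them with Trinity. RSEM 1.2.3 and DESeq appear in the submitters' processing notes. The deposited mRNA table holds expected counts, with fractions and not scaled, and an effective length. It also holds the authors' log2 fold change and the authors' p-value, whose FDR column has the same values in all 34744 rows. The small RNA table was not used.

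Counts were rounded and tested in edgeR 4.0.16 (R 4.3.3) with TMM normalization and filterByExpr, 3 hypoxia against 3 control pools, two-sided, with Benjamini-Hochberg adjustment over all 25415 components kept and a threshold of 0.05. The SE was taken from the size of the log2 fold change over the root of its F statistic. TPM were computed from counts and effective length. A list gene is represented by its most abundant component. limma 3.58.1 (voom), DESeq2 1.42.0, other filters and scaling, left-out libraries and a replicate block were alternatives. The test was checked on simulated counts. With 3 pools per group it can miss changes of 1 on the log2 scale, so a gene that did not pass may still have changed. Deviations from group means correlated between pools of the same letter at 0.22, 0.23 and 0.33 across components. Control b and hypoxia a, of different letters, correlated at 0.22 too, so hypoxia a was as alike to control b as to control a. The other pairs of different letters had r of -0.33 to 0.0046. The letters were taken as pairs on this basis, since the labels name 3 aquaria but tie no letter to an aquarium. The replicate block calls and the values between pools of the same letter rest on this choice. It was made from the same data that the block fit uses, so that fit is not independent of it. Deviations cancel out within a group, so the r of the different pairs are not independent either.

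Genes named are the 8 components, list genes that passed, the 2 most abundant of each list, 12 fixed pathway genes where matched, components with the annotation of a described gene, and those most alike in pattern. CKM, fabp10a, CEBPA, foxo3, GOT1 and Gk were added after their values were seen. A gene that this rule names is not reported here, and it stays in the counts of its list. Members and lists were chosen with earlier results of these data known. Replicate pools differed beyond counting noise (median squared difference 3.2 to 9.32 times the Poisson value). No sequence of the components was given, so none is shown.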

Additional observations from a re-analysis of the deposited data

How the results depend on the processing

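Each GYS1 component passed in the 14 alternatives, counting that with the components of a name summed. No component that passed changed direction in any of them. Leaving out 1 library at a time gave log2 fold changes of 1.88 to 2.49 for Pck1, -1.48 to -1.14 for G6PC comp11983_c0, -0.13 to 0.33 for g6pc comp7851_c0 (negative without control c), 1.86 to 2.81 for PPARGC1A comp366872_c0 and 2.08 to 2.77 for comp10615_c0. PPARGC1A comp366872_c0 lost its call in limma-voom (2.81) and with no filter (2.37). Summing components of a name gave 2.20 for PPARGC1A, which is then called where comp1837_c0 alone was not, and -1.19 for G6PC, which follows its larger component. The filter at 1 CPM in 3 libraries kept out comp10615_c0 and comp1837_c0. Over all components 1159 rose and 458 fell, with 338 to 1337 and 45 to 518 when 1 library was left out, 2337 and 1479 without both c pools, 750 falling in DESeq2 and 798 falling with the replicate block. The block changed no call among the 8 components, and the cause of these shifts was not tested. PPARGC1A rests on 1 to 12 reads per control pool, which limits its fold changes.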
